A study of Schizosaccharomyces pombe with 8 samples.

Results

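The pericentromeric repeats of Schizosaccharomyces pombe are the repeated sequences that flank the central core of each of its 3 centromeres. They were taken as every element of the deposited table with the class repeats_centromere, which gave 53 elements of 17962 in all. Of these, 9 lie on chromosome 1, 15 on chromosome 2 and 29 on chromosome 3. Small RNAs of 18 to 28 nt were sequenced from 8 strains grown at 30 °C to an OD600 of 0.5, with 1 library per strain. The mutant libraries were labelled Cdc73-G313R, Leo1-W157Stop, Paf1-G104R, Rot1-Q472Stop, Paf1-Q264Stop (spelled Paf-1Q264Stop in the labels), Leo1 deletion and Paf1 deletion. The wild-type library is the comparison for all 7. Every strain, wild type included, carried ade6-hp+, which in the study as it is known is a hairpin construct against ade6. With 1 library per strain there is no spread between replicates, so no test was possible and all differences are given with counting error at most.

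Each centromere of this yeast has a central core, where the kinetochore assembles, inside inner repeats, and outer repeats on both flanks that are packed as heterochromatin. Outer repeats are transcribed from both strands, and Dicer (Dcr1) cuts the double-stranded RNA into small interfering RNA (siRNA). Argonaute (Ago1) carries this siRNA back to the repeat transcripts, where the methyltransferase Clr4 marks histone H3 at lysine 9. Genes for tRNA stand in and around the inner repeats and are known as barriers at which heterochromatin ends. The Paf1 complex, whose subunits include Paf1, Leo1, Cdc73 and Prf1, accompanies RNA polymerase II along genes, and its mutants were the subject of the study.

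The deposited values are log2(n + 8), where n is scaled by element length and library, so that an element with no read stands at 3. "Level" means this value, and "difference" means the level of a mutant minus that of wild type. Recovered read totals were 917877 to 3156345 in the mutants and 6422602 in wild type. Small RNA at the genes that the labels name did not follow the labels in every library. The prf1 transcript had a level of 7.19 in the library labelled Paf1-G104R, against 3.04 in wild type, while paf1 there stood at 3.46, against 3.50 in wild type. In the library labelled Rot1-Q472Stop it was cdc73 that stood apart, at 6.15 against 3.36 in wild type. In the library labelled Cdc73-G313R the cdc73 level was 3.15, against 3.36 in wild type, and the paf1 level 4.33, against 3.50 in wild type, with 27 reads at paf1 in each. Libraries labelled Leo1-W157Stop and Paf1-Q264Stop had raised levels at the gene named, with leo1 at 7.34, against 4.61 in wild type, and paf1 at 5.53, against 3.50 in wild type. The leo1 transcript still held 215 reads in the library labelled Leo1 deletion, against 231 in wild type. Small RNA at a gene does not show which allele a strain carries, so all libraries are called by their labels and directions hold for the libraries as labelled.

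The 53 elements carry 42 distinct names, and 11 names are used on more than 1 chromosome, so the chromosome is given with each. They are 250 to 6518 nt long with a median of 2385 nt, 48 on the plus and 5 on the minus strand of the table. The innermost pair of inverted, at least 99% identical elements on each chromosome was taken as the inner repeats and the sequence between them as the central core. By this measure 42 elements are outer repeats, 7 lie in inner repeats and 4 in a central core. The inner pairs are unknown_148 and unknown_150 on chromosome 1 (99.8% identical over 5636 nt), unknown_70 and unknown_73 on chromosome 2 (99.8% over 4136 nt) and unknown_77 and unknown_81 on chromosome 3 (identical over 5364 nt). For 50 of the 53 another element matches at least 50% of the shorter of the pair, and 18 fall in 5 sets of identical sequence. Copies in the same orientation had exactly the same deposited value in all 8 libraries. The elements are therefore not independent measurements, because their identical copies carry 1 value.

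The sequences that matter most here are the short repeat copied across all 3 centromeres and the tRNA genes inside the inner repeats. They were read from the RefSeq genome, build ASM294v3, at the coordinates of the table. The table names no build, and the repeat copies that share a value in it are identical at these coordinates in ASM294v3. The short repeat has 391 nt and occurs 9 times, 6 times in one orientation and 3 times in the other. Its first 300 bases are shown as they stand in unknown_144 on the left flank of chromosome 1 (chr1:3753687-3753986, plus strand), with the stretch also present in unknown_86 on chromosome 3 in capitals.
Short repeat, unknown_144: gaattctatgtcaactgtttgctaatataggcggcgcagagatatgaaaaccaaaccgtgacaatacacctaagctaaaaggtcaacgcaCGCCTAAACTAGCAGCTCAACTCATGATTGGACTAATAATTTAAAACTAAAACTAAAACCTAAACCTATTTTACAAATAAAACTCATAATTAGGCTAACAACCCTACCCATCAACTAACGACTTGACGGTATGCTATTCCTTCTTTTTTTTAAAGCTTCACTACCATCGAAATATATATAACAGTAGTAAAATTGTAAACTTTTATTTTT
The next 4 are tRNA genes that lie inside a repeat element on its opposite strand, shown on their own minus strand with 20 bases on each side and the tRNA gene in capitals. They are tRNA-Glu in unknown_148 (chr1:3765414-3765525), tRNA-Ile in unknown_150 (chr1:3773890-3774003), tRNA-Ile in unknown_73 on chromosome 2 (chr2:1630029-1630142) and tRNA-Thr in unknown_77 on chromosome 3 (chr3:1093063-1093174).
tRNA-Glu, unknown_148: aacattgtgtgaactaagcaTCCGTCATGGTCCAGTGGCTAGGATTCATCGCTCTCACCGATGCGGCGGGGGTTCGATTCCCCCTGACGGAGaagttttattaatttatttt
tRNA-Ile, unknown_150: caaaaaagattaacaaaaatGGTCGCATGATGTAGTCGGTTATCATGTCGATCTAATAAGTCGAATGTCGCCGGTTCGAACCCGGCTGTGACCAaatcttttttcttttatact
tRNA-Ile, unknown_73: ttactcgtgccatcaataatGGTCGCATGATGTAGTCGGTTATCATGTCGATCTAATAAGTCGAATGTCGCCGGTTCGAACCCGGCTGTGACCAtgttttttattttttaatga
tRNA-Thr, unknown_77: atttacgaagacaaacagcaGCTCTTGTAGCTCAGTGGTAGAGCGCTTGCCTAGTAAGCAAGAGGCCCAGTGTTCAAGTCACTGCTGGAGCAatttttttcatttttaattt
Both tRNA-Ile genes have the same 74 bases and different flanks. Searched on both strands, a 23-nt window of them occurs at a median of 8 places in the genome, and one of tRNA-Glu at 6. The other pair shown are tRNA genes on the same strand as the element that holds them, tRNA-Ala in unknown_151 on chromosome 1 (chr1:3777172-3777285) and tRNA-Lys in unknown_64 on chromosome 3 (chr3:1071073-1071195), both on the plus strand.
tRNA-Ala, unknown_151: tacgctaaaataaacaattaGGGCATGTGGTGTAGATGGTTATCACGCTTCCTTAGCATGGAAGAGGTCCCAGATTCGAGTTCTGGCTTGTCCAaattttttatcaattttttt
tRNA-Lys, unknown_64: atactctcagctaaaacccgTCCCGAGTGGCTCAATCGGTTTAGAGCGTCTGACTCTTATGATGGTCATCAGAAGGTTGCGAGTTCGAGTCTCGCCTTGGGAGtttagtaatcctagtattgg
In all, 14 tRNA genes lie opposite 8 of the elements, 2 further elements have a tRNA gene on their own strand only, and 43 have none. This division was made after the values had been seen. The centromeric tRNA elements themselves held few reads, 5.06 to 204 over all 27 in the mutants and 290 in wild type. Together the 8 repeat elements opposite tRNA genes held 253637 to 465675 reads in the mutants and 1.16e+06 in wild type. Which strand of the reads the table counts was not stated, so reads of a tRNA and reads of the repeat opposite it cannot be told apart in these 8 values alone. Stretches of unknown_78 and unknown_150 with no tRNA gene opposite have values of their own, given below.

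Reads counted at the repeat elements were a large part of each library. The 53 elements held 30.2% in Cdc73-G313R, 29.7% in Leo1-W157Stop, 30.6% in Paf1-G104R, 29.8% in Rot1-Q472Stop, 32.0% in Paf1-Q264Stop, 33.1% in Leo1 deletion and 49.7% in Paf1 deletion of all recovered reads, against 51.1% in wild type. The 45 elements with no tRNA gene opposite held 2.61% in Cdc73-G313R, 10.7% in Leo1-W157Stop, 16.7% in Paf1-G104R and 10.1% in Rot1-Q472Stop. They held 17.3% in Paf1-Q264Stop, 19.6% in Leo1 deletion and 27.3% in Paf1 deletion, against 33.1% in wild type. In wild type the levels of the 53 ran from 3.01 to 13.74 with a median of 11.90, and 48 of 53 stood at 5 or more. Elements overlap in part, so reads in an overlap are counted in each: 16 elements overlap a longer one on the same strand.

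**Figure D1:**
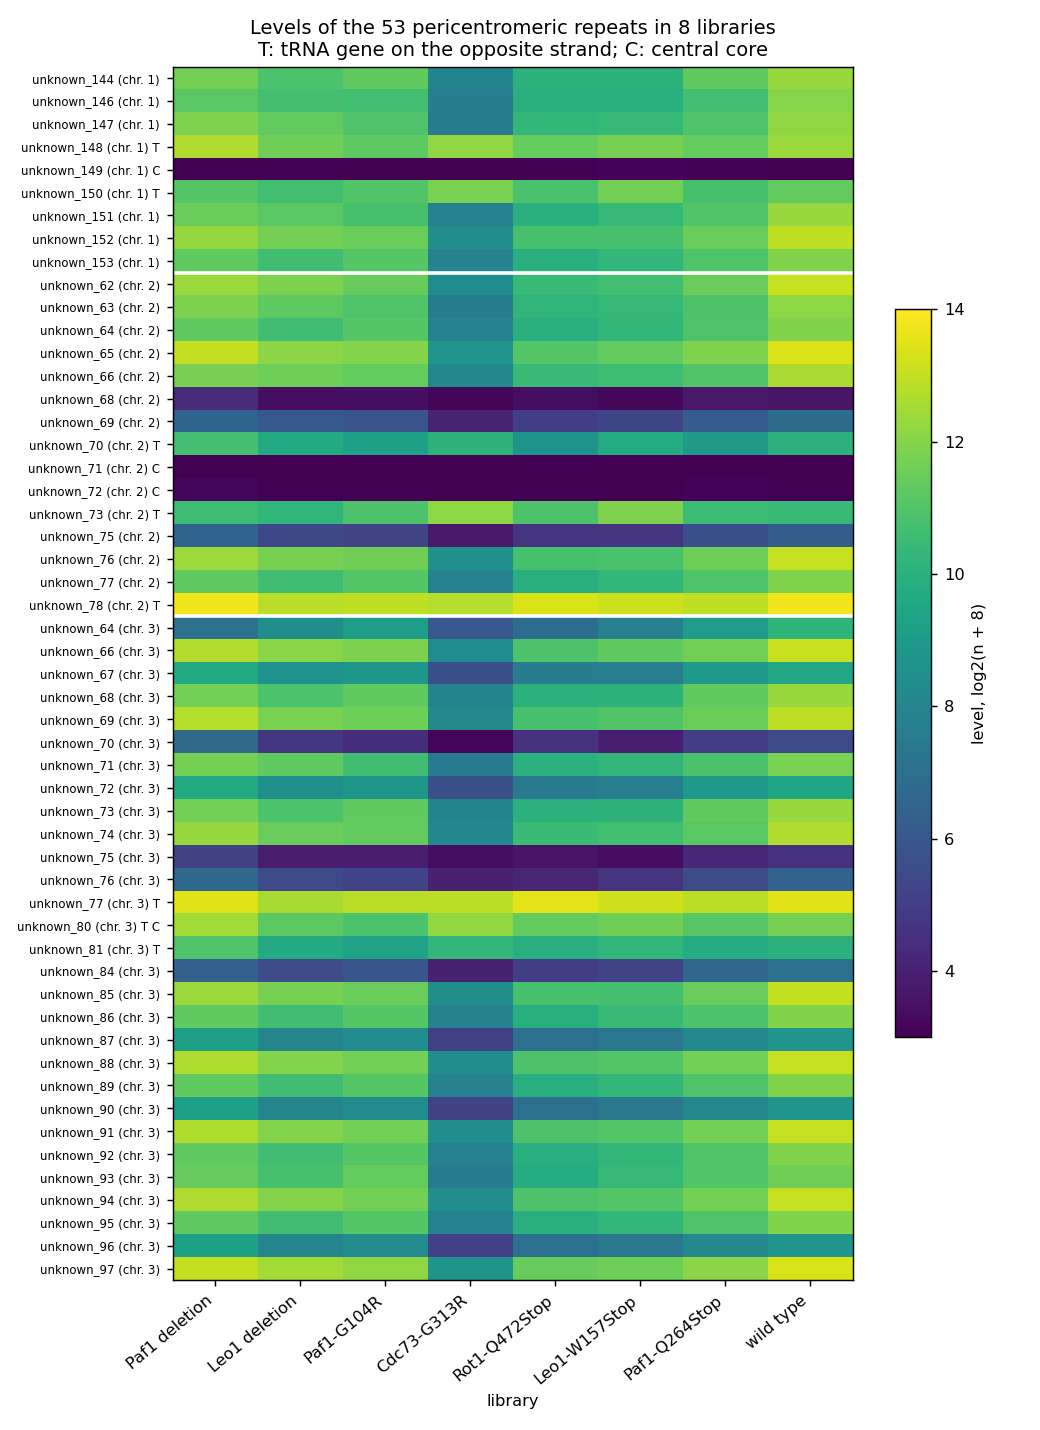
Level, as log2(n + 8), of each of the 53 pericentromeric repeats (rows, by chromosome and position) in the 7 mutant libraries and wild type (columns, 1 library each). In the Cdc73-G313R column the rows outside the core that are not marked T stand at 3.15 to 8.72. Rows marked T, which have a tRNA gene on the opposite strand, stand there at 10.10 to 12.85. The core rows without such a gene are near the floor of 3 throughout.

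Outside the core, 42 elements have no tRNA gene opposite, and the median of their small RNA differences was below 0 in every mutant on the deposited scale. The lowest library was the one labelled Cdc73-G313R, where levels ran from 3.15 to 8.72 with a median of 7.87, against 3.59 to 13.41 with a median of 11.91 in wild type. Every one of the 42 was below wild type there, and the median difference was -4.20. Next came Rot1-Q472Stop, with a median level of 9.93 and a median difference of -1.98, and Leo1-W157Stop, at 10.29 and -1.81. Median differences were -1.08 in Leo1 deletion, -1.05 in Paf1-G104R and -0.998 in Paf1-Q264Stop, whose median levels were 10.77, 11.11 and 10.97. In Paf1 deletion the median level was 11.39 and the median difference -0.40. The 391-nt repeat enters these medians 6 times in one orientation with 1 value. That value is itself the median level in Cdc73-G313R, Rot1-Q472Stop, Leo1-W157Stop, Paf1-G104R and Paf1-Q264Stop. The lowest of the 8 libraries was Cdc73-G313R for 41 of the 42 elements and Leo1-W157Stop for the other. Wild type was the highest for 32 and Paf1 deletion for 10.

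Counted at a difference of -1 or lower, 41 of the 42 were lower in Cdc73-G313R, beside 17.0% of all 17962 elements and 78.2% of the 2078 elements at 5 or more in wild type. The count was 41 in Leo1-W157Stop, beside 7.23% and 38.7%, and 39 in Rot1-Q472Stop, beside 5.26% and 30.5%. It was 27 in Leo1 deletion, beside 5.27% and 31.7%, 22 in Paf1-G104R, beside 2.24% and 11.4%, and 19 in Paf1-Q264Stop, beside 2.45% and 13.9%. In Paf1 deletion only unknown_64 on chromosome 3 passed, beside 5.13% and 28.0%, a share below both backgrounds. The 42 were set apart after the values had been seen, and the backgrounds were not divided in the same way. Over all 53 elements the count in Cdc73-G313R was also 41, beside the same 78.2%, with 0 among the 8 with a tRNA gene opposite. A gain of 1 or more was seen for unknown_70 on chromosome 3 in Paf1 deletion, beside 7.58% of all elements, and for none of the 42 in the other 6 mutants. Background shares for gains there were 0.779% in Cdc73-G313R, 2.18% in Leo1-W157Stop, 1.05% in Paf1-G104R, 2.29% in Rot1-Q472Stop, 0.952% in Paf1-Q264Stop and 1.36% in Leo1 deletion.

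Part of these differences is common to each library. The median difference of all elements at 5 or more in the higher library of a pair was -2.00 in Cdc73-G313R, -0.70 in Leo1 deletion and between -0.48 and 0.0063 in the other 5. Relative to it, the 42 elements stood at a median of -2.20 in Cdc73-G313R, -1.33 in Leo1-W157Stop, -0.93 in Paf1-G104R, -1.59 in Rot1-Q472Stop, -0.69 in Paf1-Q264Stop, -0.37 in Leo1 deletion and -0.40 in Paf1 deletion. The rRNA class held 60.0% of the summed linear level in Cdc73-G313R and 28.7% in Paf1 deletion, against 4.28% in wild type. With totals taken without rRNA, the median of the 42 was -3.01 in Cdc73-G313R and 0.028 in Paf1 deletion, so the direction in Paf1 deletion depends on the scaling. Quantile normalization left a median over all 53 of -2.02 in Cdc73-G313R and of -0.53 to 0.040 in the other 6. Counts of lower elements among the 53 then became 1 in Leo1 deletion, 1 in Paf1-G104R and 0 in Paf1-Q264Stop. Background shares were not recomputed on that scale.

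**Figure D2:**
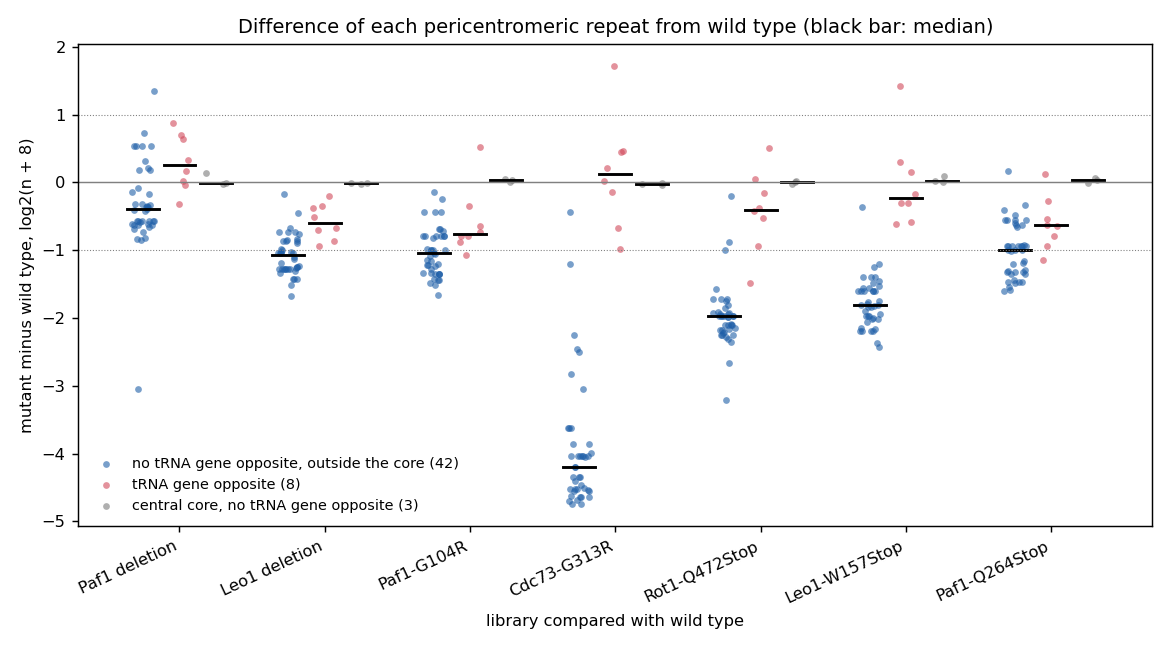
Difference in level from wild type of each of the 53 elements (points) in the 7 mutant libraries, with the median of each set as a black bar. In Cdc73-G313R the 42 elements without a tRNA gene opposite centre on -4.20, while the 8 with one centre on 0.12; the 3 grey points are core elements at the floor.

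By median, elements at all 3 centromeres and on both flanks stood below wild type in each of the 7 mutants, on the deposited scale. Most of their sequence recurs at several sites, so these values do not show at which centromere or flank reads were lost. In Cdc73-G313R the median difference of elements without a tRNA gene opposite was -4.40 left and -4.47 right of the core on chromosome 1 (3 elements each). On chromosome 2 it was -4.51 on the left (7 elements) and -4.03 on the right (3), and on chromosome 3 it was -4.20 on the left (12) and -4.03 on the right (14). Over these flanks the medians ran from -1.44 to -0.80 in Paf1-G104R, with the greatest loss right of the core on chromosome 1 and the smallest on the right of chromosome 3. In Paf1 deletion they ran from -0.69 on the right of chromosome 1 to -0.11 on the left of chromosome 3. In Cdc73-G313R the 5 minus-strand elements had a median of -4.52 and the 37 plus-strand ones of -4.05. By length, the 14 elements under 500 nt had a median of -4.03, the 9 of 500 to under 2000 nt of -4.47, the 8 of 2000 to under 3500 nt of -3.63 and the 11 of 3500 nt or longer of -4.56. Each median of -4.03 here is the 1 value that copies of the 391-nt repeat share. Over the 42 elements, length and the median difference over 7 mutants had a Spearman rho of -0.07. GC content had a rho of 0.72 with the wild-type level and of -0.54 with the median difference, as a description over elements that share sequence and reads. Each difference subtracts the wild-type level, so the second rho is not separate from the first.

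The outer repeat without a tRNA gene opposite that was highest in wild type was unknown_65 on chromosome 2 (1540 nt, left flank, minus strand). Its level was 8.72 in Cdc73-G313R, 11.35 in Leo1-W157Stop, 11.97 in Paf1-G104R, 11.06 in Rot1-Q472Stop, 11.88 in Paf1-Q264Stop, 12.07 in Leo1 deletion and 13.01 in Paf1 deletion, against 13.41 in wild type. All mutants were below wild type and Cdc73-G313R was lowest by a wide gap. The level ratio to wild type was 0.0381 in Cdc73-G313R (95% Clopper-Pearson interval 0.0356 to 0.0407, counting error only) from 876 reads, against 85140 in wild type, and 0.756 in Paf1 deletion (0.743 to 0.770).

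On the far right of chromosome 3 unknown_97 (1632 nt), whose sequence recurs inside several longer elements, had the highest mean level over the 8 libraries among the 42, again with Cdc73-G313R lowest and wild type highest. It stood at 8.69 in Cdc73-G313R, 11.57 in Leo1-W157Stop, 12.17 in Paf1-G104R, 11.45 in Rot1-Q472Stop, 12.07 in Paf1-Q264Stop, 12.49 in Leo1 deletion and 13.00 in Paf1 deletion, against 13.39 in wild type. On the right flank of chromosome 1 unknown_152 (3893 nt) had levels of 8.44 to 12.27 in the mutants and 12.96 in wild type. On the left flank unknown_146, of 5044 nt on the minus strand, had levels of 7.60 to 11.16 in the mutants and 12.00 in wild type. For these 3 elements and unknown_65 the ratio in Cdc73-G313R lay between 0.0379 and 0.0455.

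The greatest median losses over the 7 mutants were at unknown_64 on chromosome 3, unknown_62 on chromosome 2 and unknown_66 on chromosome 2. Of these, unknown_62 lies at the outer end of the left flank and matches unknown_151 over 1162 nt. It stood at 8.35 in Cdc73-G313R, 10.66 in Leo1-W157Stop, 11.43 in Paf1-G104R, 10.43 in Rot1-Q472Stop, 11.49 in Paf1-Q264Stop, 11.84 in Leo1 deletion and 12.35 in Paf1 deletion, against 13.09 in wild type. At unknown_66 on chromosome 2 levels were 8.09 to 11.75 in the mutants and 12.60 in wild type.

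The element unknown_64 on chromosome 3 had its own order of libraries. It lies at the outer left end of the centromere, on the plus strand, and holds the tRNA-Lys gene shown above. Its level was 5.97 in Cdc73-G313R, 7.81 in Leo1-W157Stop, 9.18 in Paf1-G104R, 6.96 in Rot1-Q472Stop, 9.02 in Paf1-Q264Stop, 8.50 in Leo1 deletion and 7.12 in Paf1 deletion, against 10.17 in wild type. Paf1 deletion, where the other outer repeats stood nearer to wild type, had here a ratio of 0.114 (0.0982 to 0.133) from 181 reads, against 7558 in wild type. Its difference of -3.05 there was the lowest of all 53 elements in that library, the next being -0.85.

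Taken whole, the 8 elements with a tRNA gene opposite did not share the loss in Cdc73-G313R. Their levels there were 10.10 to 12.85 with a median of 12.17, against 10.08 to 13.74 with a median of 11.56 in wild type, and the median difference was 0.12 with a range of -0.99 to 1.72. Over the mutants the median difference of the 8 was 0.12 in Cdc73-G313R, -0.23 in Leo1-W157Stop, -0.76 in Paf1-G104R, -0.40 in Rot1-Q472Stop, -0.63 in Paf1-Q264Stop, -0.59 in Leo1 deletion and 0.25 in Paf1 deletion. Relative to the median difference of each library it was 2.12 in Cdc73-G313R, 0.24 in Leo1-W157Stop, -0.65 in Paf1-G104R, -0.01 in Rot1-Q472Stop, -0.32 in Paf1-Q264Stop, 0.11 in Leo1 deletion and 0.25 in Paf1 deletion, so the sign in Leo1-W157Stop and Leo1 deletion depends on the centring. They held 91.4% of the reads at the repeats in Cdc73-G313R, 64.0% in Leo1-W157Stop, 66.1% in Rot1-Q472Stop and 40.7% to 46.1% in the other 4 mutants, against 35.4% in wild type. Within the library labelled Cdc73-G313R the lowest of the 8 was above the highest of the other 42, while in wild type the ranges overlapped. Stretches with no tRNA gene opposite inside these elements did share the loss there. SPNCRNA.373 in unknown_78 stood at 6.93 in Cdc73-G313R, against 11.11 in wild type. For unknown_151, which covers part of unknown_150, the difference was -4.47.

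Among these 8, unknown_73 on chromosome 2, the right inner repeat with tRNA-Ile opposite, was the 1 element higher by at least 1 in Cdc73-G313R and in Leo1-W157Stop. It stood at 12.15 in Cdc73-G313R, 11.85 in Leo1-W157Stop, 10.95 in Paf1-G104R, 10.94 in Rot1-Q472Stop, 10.56 in Paf1-Q264Stop, 10.23 in Leo1 deletion and 10.61 in Paf1 deletion, against 10.43 in wild type. The level ratio was 3.30 (3.25 to 3.36) in Cdc73-G313R and 2.69 (2.64 to 2.73) in Leo1-W157Stop. On the left of the same core unknown_70, with tRNA-Ala and tRNA-Val opposite, had levels of 10.10 in Cdc73-G313R and 9.77 in Leo1-W157Stop, against 10.08 in wild type. The mirror images of this inner repeat thus differed in these libraries, and each has other tRNA genes opposite.

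The highest of the 8 were unknown_78 on the right flank of chromosome 2, the longest of the 53 elements, and unknown_77 on chromosome 3. At unknown_78, with tRNA-Leu and tRNA-Gly opposite, levels were 12.76 in Cdc73-G313R, 13.16 in Leo1-W157Stop, 12.96 in Paf1-G104R, 13.36 in Rot1-Q472Stop, 12.95 in Paf1-Q264Stop, 12.87 in Leo1 deletion and 13.77 in Paf1 deletion, against 13.74 in wild type. Inside it the non-coding RNA SPNCRNA.373, which reaches no tRNA gene, stood at 6.93 in Cdc73-G313R, against 11.11 in wild type. The other 7 non-coding RNAs that lie inside elements with a tRNA gene opposite, in unknown_150 on chromosome 1, unknown_70 on chromosome 2 and unknown_77 and unknown_81 on chromosome 3, stood at 3.29 or less in the mutants and at 3.13 or less in wild type. At unknown_77 on chromosome 3, with tRNA-Arg, tRNA-Thr and tRNA-Leu opposite, they were 12.58 to 13.57 in the mutants and 13.51 in wild type. Its mirror copy unknown_81, with tRNA-Val and tRNA-Asp opposite, had levels of 9.34 to 10.96 in the mutants and 10.08 in wild type. On chromosome 1 unknown_148, with tRNA-Ala and tRNA-Glu opposite, had levels of 11.26 to 12.67 in the mutants and 12.33 in wild type.

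One inner repeat allowed both kinds of sequence to be read in the same place. On chromosome 1 unknown_151 covers the outer 1717 nt of unknown_150 and adds 8 nt of its own, and the tRNA-Ile gene opposite unknown_150 lies in the other 3919 nt. The whole of unknown_150 had levels of 10.69 to 11.80 in the mutants and 11.36 in wild type. Reads at unknown_151 were subtracted from those at unknown_150 to give the level of the other part. Differences at unknown_151 were -4.47 in Cdc73-G313R, -1.94 in Leo1-W157Stop, -1.52 in Paf1-G104R, -2.31 in Rot1-Q472Stop, -1.30 in Paf1-Q264Stop, -1.13 in Leo1 deletion and -0.82 in Paf1 deletion. For the rest of unknown_150 they were 1.70 in Cdc73-G313R, 1.40 in Leo1-W157Stop, 0.50 in Paf1-G104R, 0.50 in Rot1-Q472Stop, 0.12 in Paf1-Q264Stop, -0.19 in Leo1 deletion and 0.20 in Paf1 deletion. The stretch without a tRNA gene opposite was below wild type in all 7 mutants, as the outer repeats were by their medians, and the adjoining stretch was above it in 6 of 7.

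**Figure D3:**
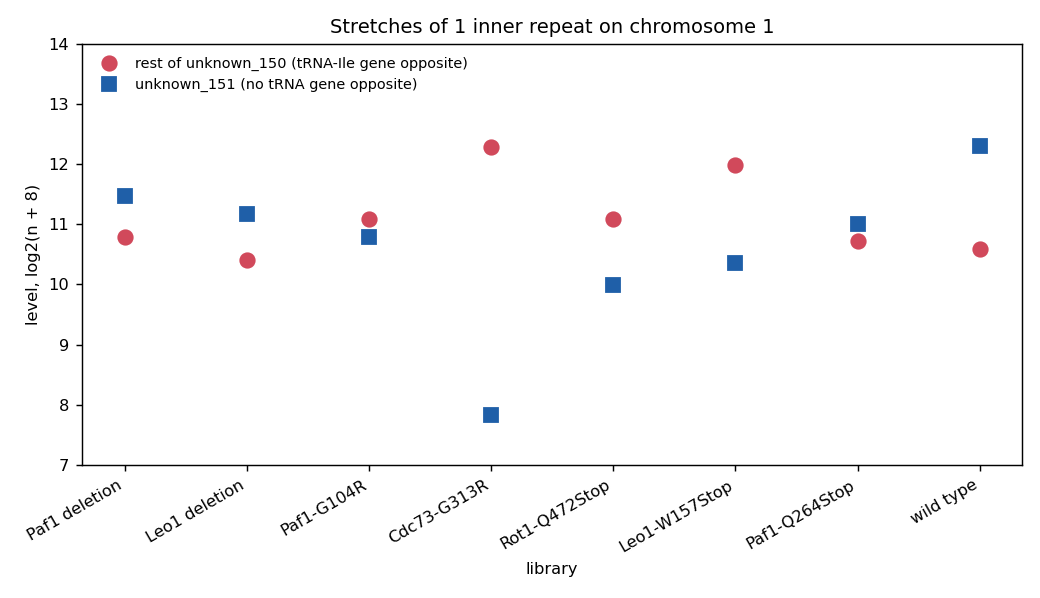
Level, as log2(n + 8), of unknown_151 (squares) and of the other 3919 nt of unknown_150 (circles) in the 7 mutant libraries and wild type. The squares are at 7.84 in Cdc73-G313R and 12.30 in wild type, while the circles are highest in Cdc73-G313R at 12.29 and stand at 10.59 in wild type.

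The reads in that adjoining stretch can be set beside those at unknown_73 on chromosome 2, which shares the tRNA-Ile gene but not its flanks. There were 26928 and 26905 reads in Cdc73-G313R, 22214 and 22246 in Leo1-W157Stop, and 30585 and 30121 in wild type. The ratio of the first number to the second was 0.999 to 1.04 over the mutants and 1.02 in wild type. Which bases of these elements the reads cover was not tested, since the table holds no positions within an element.

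In the central core, the seat of the kinetochore, small RNA was at or near the floor except at 1 element. The core elements unknown_149 on chromosome 1 and unknown_71 and unknown_72 on chromosome 2, of 3095 to 4107 nt, stood at 3.17 or less in the mutants and at 3.01 to 3.03 in wild type. No library had more than 5.65 reads at any of them. The core of chromosome 3, unknown_80, has a tRNA-Glu gene opposite and stood at 12.22 in Cdc73-G313R, 11.60 in Leo1-W157Stop, 10.88 in Paf1-G104R, 11.34 in Rot1-Q472Stop, 11.14 in Paf1-Q264Stop, 11.25 in Leo1 deletion and 12.46 in Paf1 deletion, against 11.76 in wild type. Positions 1870 to 4867 of unknown_80 match unknown_149 with 99.8% identity over 2998 nt, and the tRNA-Glu gene lies before that stretch. The 150 bases below show the shared core sequence as it stands in unknown_149 (chr1:3770049-3770198, plus strand), with nothing in capitals.
Core, unknown_149: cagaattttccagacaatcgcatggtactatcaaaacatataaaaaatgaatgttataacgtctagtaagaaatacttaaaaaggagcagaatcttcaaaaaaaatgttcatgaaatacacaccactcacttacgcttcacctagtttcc
These bases have 32.0% GC and belong to the part of the core that unknown_149 and unknown_80 share.

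**Figure D4:**
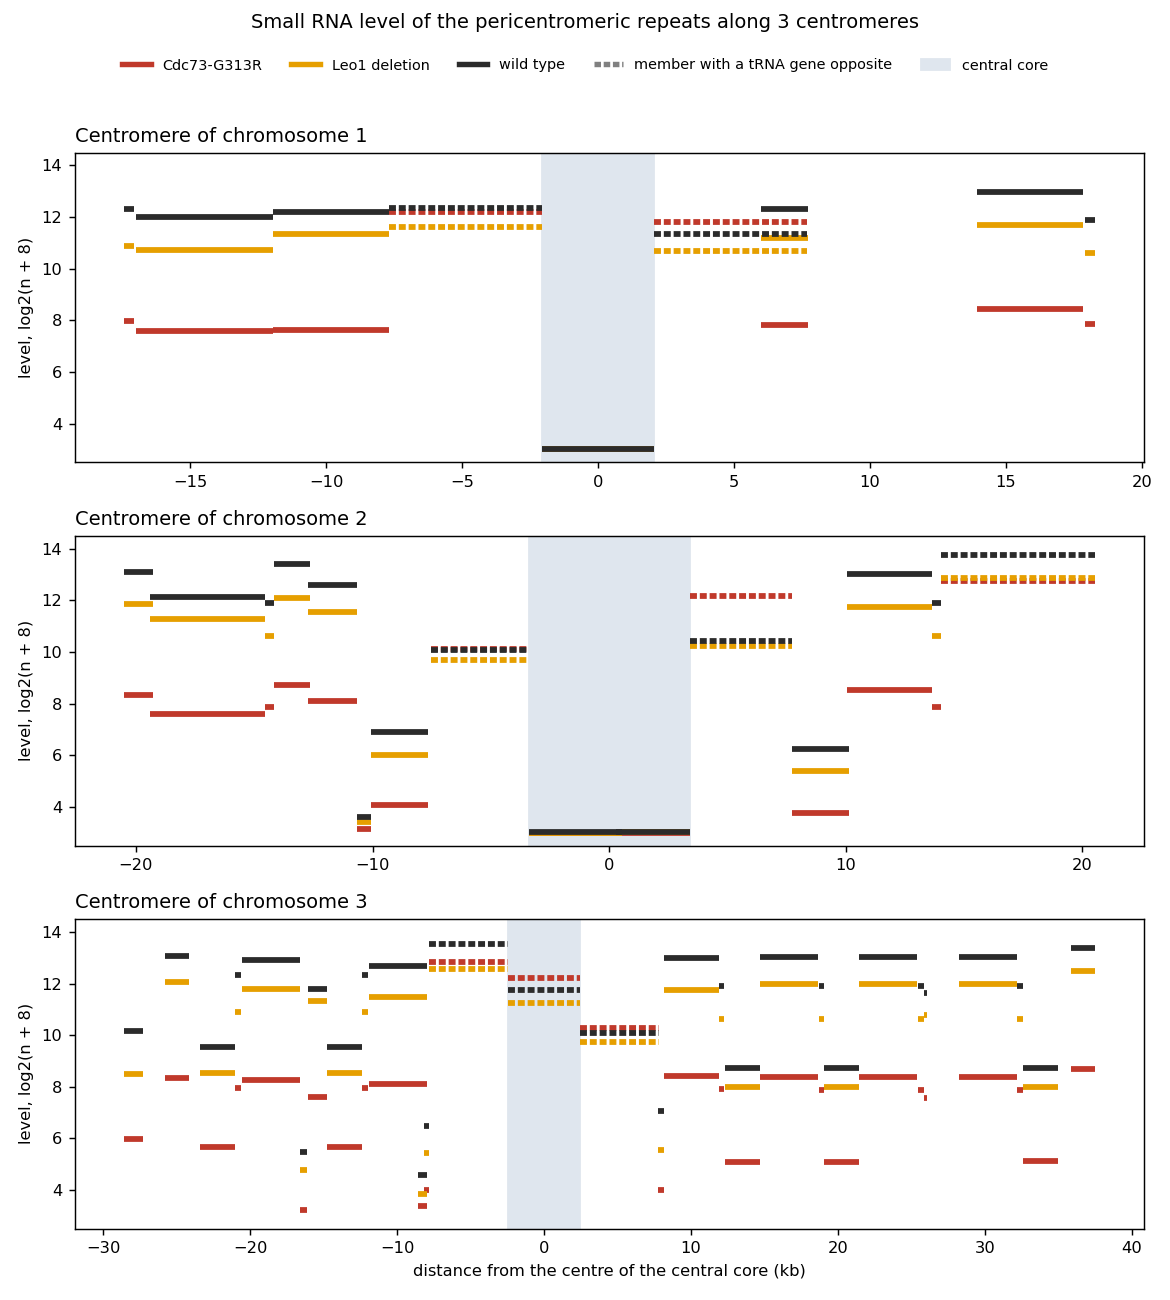
Level, as log2(n + 8), of each element drawn over its extent against the distance in kb from the centre of the central core, for Cdc73-G313R, Leo1 deletion and wild type. Broken lines are elements with a tRNA gene opposite and the shaded band is the core; solid lines outside the core are lowest in Cdc73-G313R on all 3 chromosomes, and unknown_73 on chromosome 2 stands at 12.15 in Cdc73-G313R and 10.43 in wild type.

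Not all outer repeats were rich in small RNA. Of the 42 elements, 29 stood at 11 or more in wild type and 7 under 8, at 3.59 to 7.05. These 7 are unknown_68, unknown_69 and unknown_75 on chromosome 2 and unknown_70, unknown_75, unknown_76 and unknown_84 on chromosome 3. In Paf1 deletion they had a median difference of 0.31, with 2 of 7 below wild type, while the 29 rich elements had a median of -0.57, with 29 of 29 below. In Cdc73-G313R all 7 were below wild type, by a median difference of -2.46, and the 29 had a median difference of -4.51. Low levels understate fold changes on this scale. The groups were split by the wild-type level that each difference also subtracts, so the contrast between them is not separate from that split. Copies that share 1 value are counted one by one among the 29.

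The 1 gain of at least 1 among the 42 was at unknown_70 on chromosome 3, of 473 nt, with 25.4% GC. Its first 150 bases (chr3:1082876-1083025, plus strand) are shown because the gain was counted at this element, with nothing in capitals.
Low-GC repeat, unknown_70: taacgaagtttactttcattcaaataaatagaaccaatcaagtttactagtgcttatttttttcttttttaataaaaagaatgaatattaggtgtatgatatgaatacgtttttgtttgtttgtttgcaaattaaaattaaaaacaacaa
Levels were 3.21 in Cdc73-G313R, 3.94 in Leo1-W157Stop, 4.43 in Paf1-G104R, 4.58 in Rot1-Q472Stop, 4.99 in Paf1-Q264Stop, 4.79 in Leo1 deletion and 6.82 in Paf1 deletion, against 5.47 in wild type. Paf1 deletion was the 1 library above wild type, with a ratio of 2.91 (2.03 to 4.14) from 53 reads, against 87 in wild type. The same 473 nt lie inside unknown_67, 1 of 5 elements of 2385 or 2386 nt on chromosome 3 that resemble each other. All 5 were above wild type in Paf1 deletion, by 0.18 to 0.54, and below it in the other 6 mutants. They are not 5 separate measurements, since their sequences are nearly identical. On chromosome 3 unknown_72 and unknown_87 match at 99.6% over 2386 nt. The recovered totals of unknown_87 and unknown_90 were the same, 1539 reads in Paf1 deletion and 5052 in wild type. Levels of the 5 were 5.11 to 5.68 in Cdc73-G313R and 9.27 to 9.74 in Paf1 deletion, against 8.73 to 9.53 in wild type.

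Copies of 1 sequence in opposite orientations were compared within each library, for 4 sequences. For the 391-nt repeat the linear level of unknown_144 over that of unknown_153 was 1.08 in Cdc73-G313R, 0.891 in Leo1-W157Stop, 1.16 in Paf1-G104R, 1.10 in Rot1-Q472Stop, 1.28 in Paf1-Q264Stop, 1.21 in Leo1 deletion and 1.29 in Paf1 deletion, against 1.34 in wild type. In Leo1-W157Stop, unlike the other libraries, unknown_153 had the higher value of the pair. For the 1632-nt repeat unknown_66 over unknown_97 on chromosome 3 gave 0.695 to 0.838 in the mutants and 0.810 in wild type. Another 391-nt repeat beside the inner repeats of chromosome 3 has few reads, and unknown_76 over unknown_84 gave 0.402 to 1.19 in the mutants and 0.648 in wild type. There the lowest ratio rests on 7.83 and 19.5 reads in Rot1-Q472Stop and the highest on 38.7 and 32.5 reads in Paf1 deletion. At the inner repeat of chromosome 3, unknown_77 over unknown_81 gave 5.74 to 12.6 in the mutants and 10.9 in wild type. These copies have different tRNA genes opposite, so repeat strands and tRNA reads cannot be told apart in this ratio.

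**Figure D5:**
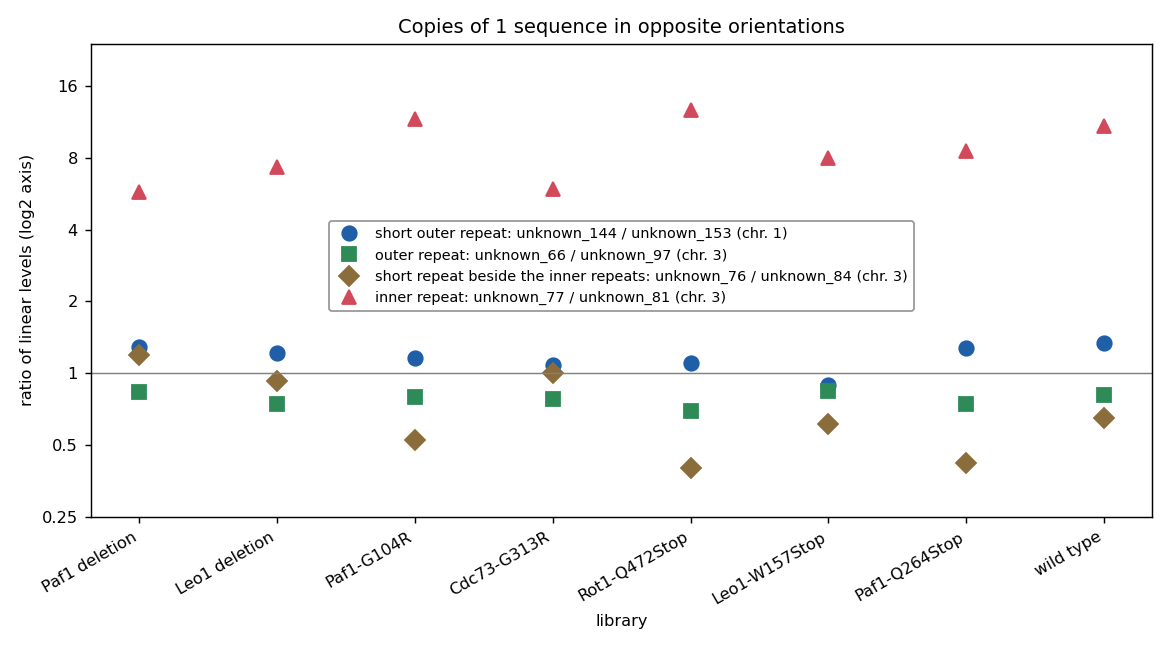
Ratio of linear levels, on a log2 axis, between copies of 1 sequence in opposite orientations in the 7 mutant libraries and wild type. The outer pairs unknown_144 over unknown_153 and unknown_66 over unknown_97 lie between 0.695 and 1.34 in all 8 libraries, the pair unknown_76 over unknown_84 between 0.402 and 1.19, and the inner repeat of chromosome 3, whose copies have different tRNA genes opposite, between 5.74 and 12.6.

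The table has 26 centromeric non-coding RNAs, which lie among the repeats. The 14 of them at 5 or more in wild type had median differences of -4.29 in Cdc73-G313R, -1.81 in Leo1-W157Stop, -1.23 in Paf1-G104R, -2.14 in Rot1-Q472Stop, -1.16 in Paf1-Q264Stop, -1.10 in Leo1 deletion and -0.45 in Paf1 deletion. Telomeric elements, 16 of 27 at 5 or more in wild type, had -5.78 in Cdc73-G313R, -5.34 in Leo1-W157Stop, -4.55 in Paf1-G104R, -5.88 in Rot1-Q472Stop, -4.87 in Paf1-Q264Stop, -3.11 in Leo1 deletion and -1.92 in Paf1 deletion. With low elements kept, the medians over all mutants ran from -2.62 to -0.0098 for the 26 non-coding RNAs and from -2.94 to -0.59 for the 27 telomeric elements.

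Genes of RNA interference and heterochromatin were read from a list of 26, among them ago1, dcr1, rdp1 (the RNA-dependent RNA polymerase), chp1 and tas3 (partners of Ago1), clr4, and swi6, which binds methylated histone H3. All 26 were found in the table, with a median small RNA level of 3.13 to 3.75 in the mutants and 3.54 in wild type. Higher by at least 1 was 1 gene in Paf1 deletion, beside 7.58% of all elements, and none in the other mutants. Lower by at least 1 were 2 genes in Cdc73-G313R, beside 17.0% of all elements, and 2 in Leo1-W157Stop, beside 7.23%. The count was 1 in Rot1-Q472Stop, beside 5.26%, 1 in Paf1-Q264Stop, beside 2.45%, 1 in Leo1 deletion, beside 5.27%, and 0 in Paf1-G104R, beside 2.24%, and in Paf1 deletion, beside 5.13%. In each mutant with a lower gene, epe1 was that gene or 1 of them, and arb2 was the other in Cdc73-G313R and Leo1-W157Stop. A gene less than 1 above the floor of 3 in wild type cannot be counted as lower, and most of the 26 stood there. The counts of lower genes therefore do not show that the listed genes were unchanged. These values count small RNA at the genes, not their messenger RNA, which was not measured here.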

How the data were processed

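Per the labels' protocols, small RNA of 18 to 28 nt was purified from 25 µg of small RNA, 1 library for each of 8 strains. Tools listed by the submitters' processing notes are CASAVA 1.8 and Bowtie 0.9.9.1. Not given in the sources used here were the genome build, annotation and counting rules. The authors deposited log2 values for 17962 elements. Each library had its lowest value at 3 and a linear total of 907489 once 8 was taken off, so they are read as log2(n + 8). The worth of 1 read was the commonest value of n times length, and 79.6% to 89.2% of elements above 0 then held whole reads within 0.05. No count model was used.

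Elements were mapped to ASM294v3 and compared with BLAST+ 2.17.0 (Python 3.11.15, pandas 2.3.3, numpy 2.4.6). Differences are mutant minus wild type, and 1 on the log2 scale is the rule of size. Level ratios carry 95% Clopper-Pearson intervals from rounded reads, given their sum. Because PCR reads may repeat a molecule, these cover counting error at most. Recovered totals at repeated sequence are often fractions, and the intervals treat them as whole, separate reads. Named were the element of highest mean level for each centromere, side and strand, the 3 lowest and 3 highest by median difference among elements reaching 5 in a library, and all core elements; others, unknown_70 on chromosome 3 among them, were chosen after their values were seen. Members and lists were chosen with earlier results of these data known. Scripts were tested on simulated data. Alternatives were recentring, quantile normalization, totals without rRNA, an offset of 1, a level minimum of 5 and subsets of elements.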

Additional observations from a re-analysis of the deposited data

How the results depend on the processing

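No paired analysis was possible because each strain has 1 library, all numbered 1. Values were recomputed with 6 alternatives and, chosen after seeing the data, over the 42 elements outside the core with no tRNA gene opposite. Over all 53 elements the median difference was -4.03 in Cdc73-G313R, -1.61 in Leo1-W157Stop, -0.99 in Paf1-G104R, -1.96 in Rot1-Q472Stop, -0.93 in Paf1-Q264Stop, -1.02 in Leo1 deletion and -0.33 in Paf1 deletion. Its sign was kept in all 7 mutants under recentring, an offset of 1 and both subsets of elements, and in all but Paf1 deletion under quantile normalization and totals without rRNA. Recentred, it was -2.03 in Cdc73-G313R, -1.13 in Leo1-W157Stop, -0.88 in Paf1-G104R, -1.58 in Rot1-Q472Stop, -0.62 in Paf1-Q264Stop and -0.32 in Leo1 deletion. After quantile normalization it was -2.02 in Cdc73-G313R, -0.39 in Leo1-W157Stop, -0.20 in Paf1-G104R, -0.53 in Rot1-Q472Stop, -0.15 in Paf1-Q264Stop, -0.17 in Leo1 deletion and 0.040 in Paf1 deletion. Totals without rRNA gave -2.80 in Cdc73-G313R, -1.26 in Leo1-W157Stop, -1.67 in Rot1-Q472Stop, -0.86 in Paf1-Q264Stop, -0.89 in Leo1 deletion and 0.065 in Paf1 deletion. With a level of at least 5 it was -1.76 in Leo1-W157Stop, -1.05 in Leo1 deletion and -0.36 in Paf1 deletion, without overlapping elements -1.77 in Leo1-W157Stop and -0.996 in Leo1 deletion, and with an offset of 1 -1.78 in Leo1-W157Stop and -1.05 in Leo1 deletion. Over the 42 it was -1.81 in Leo1-W157Stop, -1.08 in Leo1 deletion and -0.40 in Paf1 deletion, recentred -2.20 in Cdc73-G313R, -1.33 in Leo1-W157Stop, -1.59 in Rot1-Q472Stop, -0.69 in Paf1-Q264Stop, -0.37 in Leo1 deletion and -0.40 in Paf1 deletion, and with totals without rRNA -3.01 in Cdc73-G313R, -1.46 in Leo1-W157Stop, -1.68 in Rot1-Q472Stop, -0.94 in Leo1 deletion and 0.028 in Paf1 deletion.

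The number of the 53 lower by at least 1 was 41 in Cdc73-G313R, 41 in Leo1-W157Stop, 23 in Paf1-G104R, 40 in Rot1-Q472Stop, 20 in Paf1-Q264Stop, 27 in Leo1 deletion and 1 in Paf1 deletion. Beside them stand 17.0% of all elements and 78.2% of those at 5 or more in wild type in Cdc73-G313R. In Leo1-W157Stop these shares were 7.23% and 38.7%, in Paf1-G104R 2.24% and 11.4%, and in Rot1-Q472Stop 5.26% and 30.5%. They were 2.45% and 13.9% in Paf1-Q264Stop, 5.27% and 31.7% in Leo1 deletion, and 5.13% and 28.0% in Paf1 deletion. Neither share was recomputed under the alternatives. Quantile normalization gave counts of 13 in Leo1-W157Stop, 1 in Paf1-G104R, 13 in Rot1-Q472Stop, 0 in Paf1-Q264Stop and 1 in Leo1 deletion. Recentring gave 0 in Leo1 deletion, also over the 42. Without overlapping elements, where fewer are counted, it was 27 in Cdc73-G313R and 27 in Leo1-W157Stop. The number higher was 1 in Paf1 deletion, beside 7.58% of all elements, 1 in Leo1-W157Stop, beside 2.18%, and 1 in Cdc73-G313R, beside 0.779%. Recentred, it became 12 in Cdc73-G313R, after quantile normalization 2 in Rot1-Q472Stop, 3 in Leo1-W157Stop, 6 in Cdc73-G313R and 3 in Paf1 deletion, and with totals without rRNA 6 in Cdc73-G313R and 5 in Paf1 deletion. An offset of 1 gave 2 in Paf1 deletion. Over the 42 it was 0 in Cdc73-G313R and 0 in Leo1-W157Stop, recentred 0 in Leo1-W157Stop, and with totals without rRNA 0 in Cdc73-G313R, 0 in Leo1-W157Stop and 2 in Paf1 deletion. The share of the summed linear level was 4.65% in Cdc73-G313R, 8.99% in Leo1-W157Stop, 11.5% in Paf1-G104R, 8.18% in Rot1-Q472Stop, 11.1% in Paf1-Q264Stop, 11.6% in Leo1 deletion, 19.2% in Paf1 deletion and 24.3% in wild type. Without rRNA in the total it was 11.6% in Cdc73-G313R, 12.2% in Leo1-W157Stop, 12.6% in Paf1-G104R, 10.5% in Rot1-Q472Stop, 12.2% in Paf1-Q264Stop, 13.3% in Leo1 deletion, 26.9% in Paf1 deletion and 25.3% in wild type, and without overlapping elements 4.43% in Cdc73-G313R, 7.83% in Leo1-W157Stop, 9.32% in Paf1-G104R, 7.23% in Rot1-Q472Stop, 9.05% in Paf1-Q264Stop, 9.76% in Leo1 deletion, 16.2% in Paf1 deletion and 19.9% in wild type. The cause of these changes was not tested. Depth limits the low elements, since a recovered total of 0.818 reads set the level of unknown_70 on chromosome 3 in Cdc73-G313R. That total is not a whole read, and how reads that match several sites were counted was not stated.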
